A study of Mus musculus with 6 samples.

Results

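Autophagy delivers cell contents to lysosomes for breakdown. A kinase complex built on ULK1 starts it, a lipid kinase complex marks the membrane where it begins, lipid transfer proteins enlarge that membrane, and a conjugation system attaches small ATG8 proteins to it. The vacuolar ATPase (V-ATPase) is the proton pump that acidifies lysosomes, with a membrane sector, V0, that carries protons and a soluble sector, V1, that hydrolyses ATP. TFEB, TFE3 and MITF, the MiT/TFE transcription factors, bind E-box sequences and are known activators of autophagy and lysosome genes, and neurons rely on the pathway to clear proteins and organelles.

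The mRNA levels of 54 genes of this pathway are described here, out of 29493 genes in the count table. They were taken by symbol: every gene whose symbol starts with Atg and a digit, every gene whose symbol starts with Atp6v0 or Atp6v1 (V-ATPase subunits of the V0 and V1 sectors), and 16 named genes for initiation, ATG8 proteins, the MiT/TFE factors, the cargo receptor Sqstm1 and the lysosomal glycoproteins. This gave 34 genes of autophagy, lysosome membrane and MiT/TFE factors, 18 V-ATPase subunit genes and 2 genes, Atg4a-ps and Atp6v0c-ps1, whose symbols mark them as pseudogenes. Of the 54, 52 had enough counts to be tested.

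All libraries came from HT22, a neuronal cell line derived from mouse hippocampus, of the genotype HT22-TR/TO-V5Klf13-1, in which a stable transgene for V5-tagged KLF13 is under control of the tet repressor. KLF13 belongs to the Krüppel-like zinc-finger factors. Cells received doxycycline at 1 µg/ml (Dox, n = 3) or vehicle (n = 3), and the stated treatment time was 8 hours. Both groups carry the transgene and come from this 1 line, so KLF13 and the drug itself cannot be told apart. Nothing in the labels tells separate cultures from repeat samples of 1 culture, and p-values reflect only the spread seen among these libraries, which may be technical.

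Libraries held 38566798 to 52930384 counts. Klf13, the induced gene, was measured at 36.1 to 39.1 CPM in vehicle and 184 to 205 CPM in Dox. CPM is a count scaled to the size of its library. Transgene and endogenous Klf13 reads were not separated. Across all genes, 54.7% of the 18067 tested had an adjusted p under 0.05 in edgeR's quasi-likelihood test, with 25.9% higher and 28.8% lower in Dox. Of the 16 neuron markers listed, 10 were in the table and 5 of these, Map2 and Gap43 among them, stayed under 1 CPM in every library. Their summed level was 96.9 to 97.8 CPM in vehicle and 32.8 to 34.0 CPM in Dox, and Tubb3 alone was at 60.8 and 14.7 CPM. Fibroblast markers summed to 14500 to 15200 CPM in vehicle and 11500 to 12000 CPM in Dox, with 9 of 12 tested members lower, and Col1a2 alone was at 5069 CPM in vehicle, in a line labelled neuronal. Astrocyte, oligodendrocyte, microglia and endothelial markers each summed to 47.3 CPM or less in every library. Mitochondrial transcripts summed to 34200 to 35600 CPM and 33300 to 34200 CPM. The part of these shifts in the results below was not tested.

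Promoters picked for the motifs they hold, not for the size of a change, are printed first. The MiT/TFE factors are themselves among the genes measured, and KLF factors bind GC-rich boxes. RefSeq windows from 250 bases before to 50 after the annotated start were found for 43 of the 54 genes. Atg16l1 and Atp6v1h were among those without a window. Each window was searched on both strands for the E-box CACGTG, for TCACGTGA, an extended E-box that contains it, and for the GT-box GGGNGTGGC and the GC-box GGGGCGGGG of the KLF and SP factors. The first 4 lines below are the genes with the extended E-box, the next 2 are the genes with 2 or more E-boxes whose levels fell or did not pass the test, and the last 2 are the MiT/TFE factors that fell. Each is a stretch of 140 bases in build GRCm38.p6, written 5′ to 3′ on the gene's strand, with matches to a motif in capitals.
Atg3, plus strand, chr16:45158680-45158819: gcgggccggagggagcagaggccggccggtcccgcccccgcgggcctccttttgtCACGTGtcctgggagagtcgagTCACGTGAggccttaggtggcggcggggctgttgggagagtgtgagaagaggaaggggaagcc
Atp6v0d1, minus strand, chr8:105566015-105566154: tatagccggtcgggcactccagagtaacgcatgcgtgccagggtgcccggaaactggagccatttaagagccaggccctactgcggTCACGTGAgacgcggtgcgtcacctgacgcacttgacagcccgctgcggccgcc
Atp6v0e, plus strand, chr17:26676306-26676445: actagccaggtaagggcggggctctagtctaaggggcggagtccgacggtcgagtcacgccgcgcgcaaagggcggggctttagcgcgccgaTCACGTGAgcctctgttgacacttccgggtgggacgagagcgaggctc
Atp6v1a, minus strand, chr16:44139318-44139457: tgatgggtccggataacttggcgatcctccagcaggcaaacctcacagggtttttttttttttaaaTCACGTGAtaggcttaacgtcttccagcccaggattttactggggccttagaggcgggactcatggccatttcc
Atp6v0b, minus strand, chr4:117887284-117887423: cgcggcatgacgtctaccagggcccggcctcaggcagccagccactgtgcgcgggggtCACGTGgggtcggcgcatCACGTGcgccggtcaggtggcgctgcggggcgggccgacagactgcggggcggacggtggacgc
Lamp1, plus strand, chr8:13159056-13159195: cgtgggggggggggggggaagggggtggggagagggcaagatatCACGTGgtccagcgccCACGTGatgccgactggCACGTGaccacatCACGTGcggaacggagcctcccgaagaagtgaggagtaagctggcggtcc
Tfe3, plus strand, chrX:7762411-7762550: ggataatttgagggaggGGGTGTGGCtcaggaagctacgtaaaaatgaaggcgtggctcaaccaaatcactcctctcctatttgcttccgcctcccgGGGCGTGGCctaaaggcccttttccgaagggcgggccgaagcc
Tfeb, plus strand, chr17:47737726-47737865: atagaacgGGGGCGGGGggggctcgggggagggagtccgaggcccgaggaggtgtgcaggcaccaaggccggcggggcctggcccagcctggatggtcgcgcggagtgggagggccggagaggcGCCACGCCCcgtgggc

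The E-box was in the windows of 9 of the 43 genes (20.9%), against 8.09% of 27025 genes with a window. Those 27025 are all genes with a RefSeq window, not only genes tested here. These 9 were Atg3, Atg5, Atg7, Atg14, Atp6v0b, Atp6v0d1, Atp6v0e, Atp6v1a and Lamp1. The extended E-box was in 4 of 43 (9.3%), against 1.12% of all genes. Those 4 genes were all higher with Dox, Atg3 with a call that was lost in 6 of 15 alternatives. Of the 43 genes with a window, 21 were higher and 9 lower, and of the 9 with an E-box, 6 were higher and 2 lower. A link between motif and direction was not tested. Lamp1 held 4 E-boxes within the 61 bases before its start and did not pass the test, and Atp6v0b held 2 and fell. The GT-box was in 6 of 43 (14.0%), against 6.59%, namely Tfeb, Tfe3, Atg4d, Lamp2, Ulk2 and Wipi1. Tfeb has 3 windows, and its GT-box and a GC-box were both in the stretch printed here. The GC-box was in 11 of 43 (25.6%), against 12.9%. By direction, the GC-box was in 2 of the 21 higher genes (9.52%) and 3 of the 9 lower (33.3%). The GT-box was in 1 of 21 (4.76%) and 2 of 9 (22.2%). These differences were not tested either. A match is a description of the letters in a window, and binding was not measured.

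With Dox, 26 of the 52 tested genes (50%) were higher, against 25.9% of all genes tested. Lower were 11 (21.2%), against 28.8% of all genes, and 15 did not pass the test. Among genes with a mean of at least 5 CPM, 8248 of 11629 (70.9%) were called, 4072 higher and 4176 lower. Of the 48 genes described here that reached this level, 34 were called, 25 higher and 9 lower. The shares of all genes given elsewhere in the text include genes under 5 CPM. The median log2 fold change was 0.15, against 0.02 over all genes tested. It was 0.29 for the V-ATPase genes and 0.05 for the 34 genes of autophagy, lysosome membrane and MiT/TFE factors. Most changes stayed under 1.5-fold. Of the 52, 7 rose by at least 1.5-fold, beside 1322 of the 18067 genes tested (7.32%). By the same size 4 of the 52 fell, beside 2675 of the 18067. Only Tfeb fell by at least 2-fold, against 7.51% of all genes. Levels did not overlap between the groups for 39 of 52 genes (75.0%), against 64% of all genes. In bulk RNA a change in RNA per cell and a change in the mix of cells cannot be told apart. The directions were unequal over the pathway: the 4 ULK1 complex genes among them were all higher, 3 of the 5 ATG8 genes were lower, and V-ATPase genes were higher in 10 of 16. Upper-quartile scaling moved the median of all genes from 0.02 to 0.11 and the share of calls that were higher from 47.4% to 58.4% over all genes. For the genes described here it gave 29 higher and 8 lower.

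**Figure D1:**
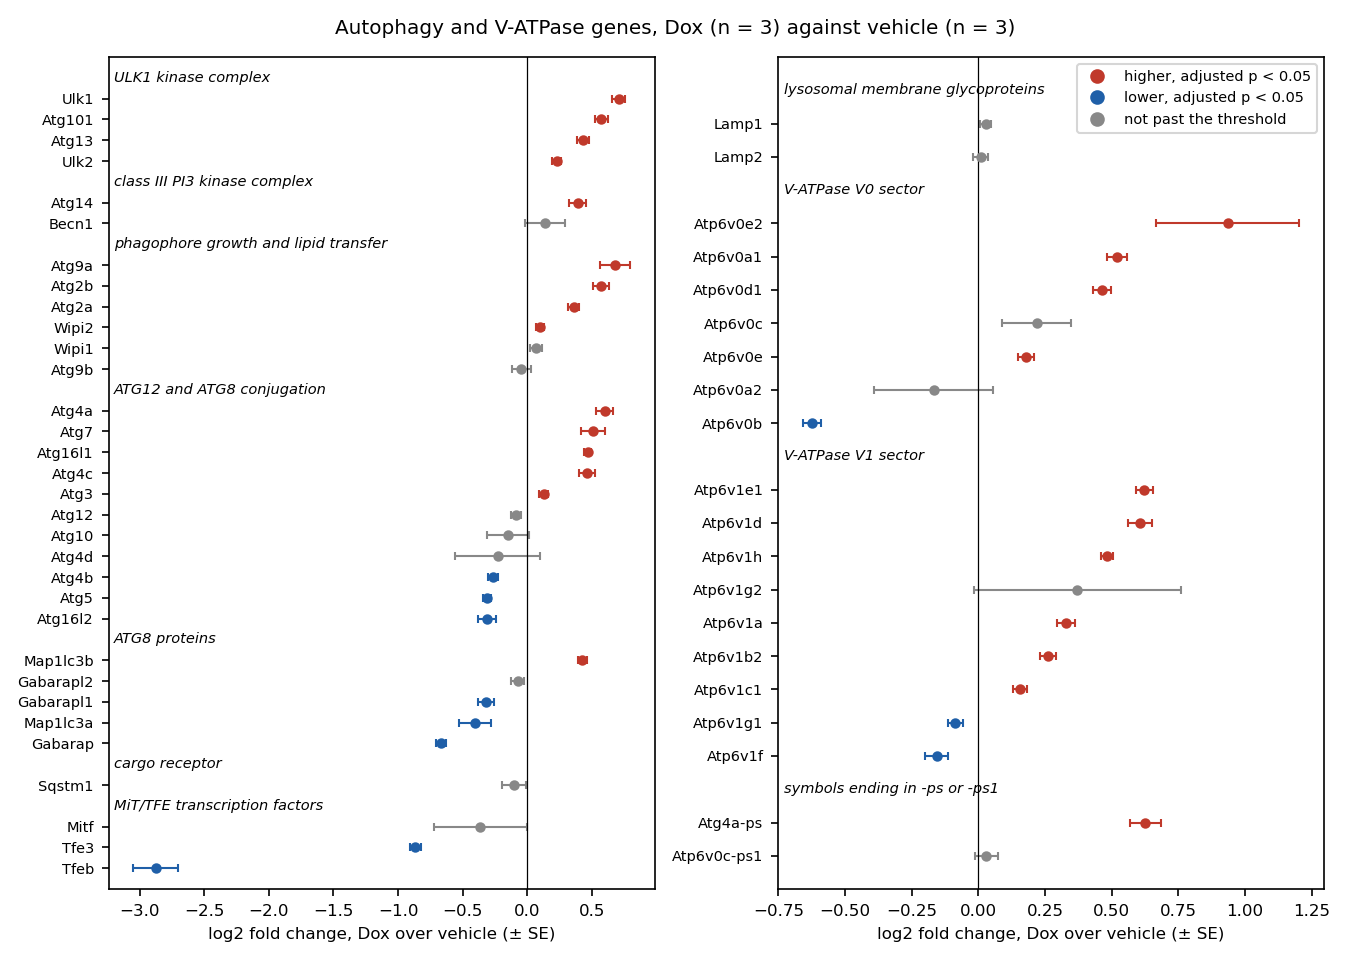
Log2 fold change of each tested gene, Dox over vehicle (3 libraries each), with bars for the standard error, grouped by role. Red points were higher and blue points lower at an adjusted p under 0.05, grey points did not pass, and the left and right panels have different horizontal scales. Tfeb at -2.87 stands farthest from 0.

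The ULK1 complex phosphorylates the proteins that begin an autophagosome, and Ulk1, Ulk2, Atg13 and Atg101 were all higher. Rb1cc1, the remaining subunit of the complex, was counted with the other initiation genes and was also called higher (log2 fold change 0.20 ± 0.07, edgeR adjusted p = 0.048). Ulk1 (chromosome 5, 110784488 to 110810097, minus strand, GRCm38), which encodes the kinase, was at 28.9, 31.1 and 28.5 CPM in the vehicle libraries and 47.0, 50.6 and 47.3 CPM in the Dox libraries. The groups did not overlap, and the change was 1.64-fold (log2 fold change 0.71 ± 0.05 SE, edgeR adjusted p = 4.6e-05). Atg101, a scaffold of the complex, was at 27.7, 24.9 and 27.1 CPM against 39.5, 39.5 and 39.7 CPM, again with every Dox library above every vehicle library (0.57 ± 0.05, edgeR adjusted p = 9.4e-05). Atg13, the regulatory subunit that binds the kinase, rose by a log2 fold change of 0.44 and Ulk2, the related kinase, by 0.23. Atg101 lies at chromosome 15, 101284272 to 101290945, on the plus strand.

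The class III PI3 kinase complex makes the lipid that recruits later factors, and its 2 genes here, Atg14 and Becn1, gave different outcomes. Atg14, the subunit that brings the kinase to the site of autophagosome formation, was at 11.1, 11.0 and 10.0 CPM in vehicle and 13.3, 14.2 and 14.6 CPM in Dox (log2 fold change 0.39 ± 0.06, edgeR adjusted p = 0.0021). Becn1, the scaffold shared by several forms of the kinase, was at 102, 87.2 and 93.4 CPM in vehicle and 112, 120 and 79.9 CPM in Dox. The Dox 3 library was the lowest of all 6, so the groups overlapped and Becn1 did not pass (0.14 ± 0.15, edgeR adjusted p = 0.48). Without Dox 3 the log2 fold change was 0.30 with an adjusted p of 0.027. That was the only 1 of 15 alternatives in which Becn1 passed. Its values over them ran from 0.02 to 0.30, with adjusted p up to 0.92. Pik3c3, the catalytic subunit of the same kinase, was higher (0.54 ± 0.04, edgeR adjusted p = 4.0e-05).

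Genes for growth of the membrane were higher or did not pass: 4 of 6 rose and none fell, beside 25.9% and 28.8% of all genes. Atg2b, which encodes a lipid transfer protein, was at 53.4, 51.4 and 46.9 CPM in vehicle and 74.4, 79.2 and 71.8 CPM in Dox (log2 fold change 0.57 ± 0.06, edgeR adjusted p = 0.00029). The gene Gskip, which shares exonic sequence with Atg2b, moved the other way (-1.48 ± 0.05). Atg2a, its paralog, was at 31.0, 32.1 and 31.0 CPM against 41.1, 41.5 and 38.4 CPM, with no overlap (0.36 ± 0.04, edgeR adjusted p = 0.00052). Atg9a, which encodes the lipid scramblase of the pathway, was at 115, 113 and 107 CPM in vehicle and 194, 196 and 146 CPM in Dox. Its Dox 3 library lay between the other Dox libraries and the vehicle group. The log2 fold change of Atg9a was 0.68 ± 0.11 (edgeR adjusted p = 0.0025), and 0.81 without Dox 3. Its values per library were chosen for print after they were seen, because Atg9a shares exonic sequence with Gm29253, a gene on the same strand. Gm29253 was at 11.9, 5.21 and 11.7 CPM in vehicle and 5.66, 18.0 and 27.0 CPM in Dox. Its highest library was thus Dox 3, the lowest Dox library of Atg9a. Whether shared reads play a part was not tested. Wipi2, which binds the lipid made by the kinase, rose by 0.10 (edgeR adjusted p = 0.031), a call lost in 6 of 15 alternatives, among them those without Vehicle 2 (adjusted p = 0.085), Vehicle 3 (0.076), Dox 1 (0.084) or Dox 3 (0.098). Wipi1 and Atg9b did not pass, at 0.07 and -0.05. With upper-quartile scaling Wipi1 passed, at 0.16 with an adjusted p of 0.023, and the value of Atg9b changed sign.

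Of the 11 conjugation genes, 5 were higher (45.5%, against 25.9% of all genes). The 3 lower (27.3%) were near the 28.8% of all genes. Atg16l1, which directs the attachment of ATG8 proteins to the membrane, was at 69.5, 72.1 and 71.9 CPM in vehicle and 100.5, 96.8 and 98.0 CPM in Dox (log2 fold change 0.47 ± 0.03, edgeR adjusted p = 2.8e-05). Atg5 encodes a protein that works in 1 complex with ATG16L1, and it moved the other way, from 53.2, 51.3 and 52.5 CPM to 41.4, 42.8 and 42.6 CPM. Its groups did not overlap (-0.31 ± 0.03, edgeR adjusted p = 0.00024). Atg12, the ubiquitin-like protein joined to ATG5, did not pass (-0.09 ± 0.04), nor did Atg10, the enzyme that joins them (-0.15 ± 0.16). Atg7, the activating enzyme of both conjugation branches, rose by 0.51, and Atg3, the enzyme that passes ATG8 proteins to lipid, by 0.13 (edgeR adjusted p = 0.022). The call of Atg3 was lost without Vehicle 1 (adjusted p = 0.068), Vehicle 2 (0.061), Dox 1 (0.069) or Dox 3 (0.072). Atg16l2, a paralog of Atg16l1, was lower at -0.31.

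The 4 ATG4 proteases, which trim ATG8 proteins and release them from lipid, did not move together. Atg4a and Atg4c were higher by log2 fold changes of 0.60 and 0.47, and Atg4b was lower at -0.26. Atg4d was at 42.3, 58.2 and 54.4 CPM in vehicle and 68.7, 28.8 and 34.9 CPM in Dox, values printed because the Dox 1 library stands apart. Dox 1 was the highest and the other Dox libraries the lowest of all 6, and Atg4d did not pass (-0.23 ± 0.33, edgeR adjusted p = 0.60). Without Dox 1 it was -0.70 with an adjusted p of 0.016, and without Dox 2 its sign turned, at 0.01. Atg4d shares exonic sequence with Kri1, which rose by 0.42. Atg4a-ps on chromosome 3, a pseudogene of Atg4a by its symbol but protein-coding in GENCODE M21, was at 4.67, 4.71 and 4.96 CPM in vehicle and 7.61, 7.07 and 7.46 CPM in Dox (0.63 ± 0.06, edgeR adjusted p = 0.00014). How reads that match both Atg4a and Atg4a-ps were counted is not given in the sources used here, so both values are uncertain.

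Of the 5 ATG8 genes, whose products sit on the autophagosome membrane and bind cargo receptors, 3 were lower and 1 higher. These are 60% and 20%, beside 28.8% and 25.9% of all genes. Gabarap (chromosome 11, 69991143 to 69994951, plus strand) was at 161, 149 and 150 CPM in vehicle and 96.9, 93.8 and 98.2 CPM in Dox. All Dox libraries were below all vehicle libraries, a 1.59-fold fall (log2 fold change -0.67 ± 0.04, edgeR adjusted p = 1.9e-05). Gabarapl1 was at 40.2, 46.1 and 40.8 CPM against 35.0, 32.4 and 34.5 CPM (-0.32 ± 0.06, edgeR adjusted p = 0.0058), also without overlap. Map1lc3a, the fall with the largest p of the 3, was at 7.18, 5.98 and 6.13 CPM against 5.68, 4.36 and 4.54 CPM (-0.40 ± 0.13, edgeR adjusted p = 0.033), and it missed the threshold in 7 of 15 alternatives, up to an adjusted p of 0.16.

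Map1lc3b encodes the LC3B protein used in most assays of autophagosomes, and it was the ATG8 gene that rose. It was at 34.4, 35.4 and 33.8 CPM in vehicle and 48.0, 46.1 and 45.4 CPM in Dox (log2 fold change 0.43 ± 0.04, edgeR adjusted p = 0.00013), with clear separation of the groups. Zcchc14, which overlaps it in exons, was lower (-0.21 ± 0.04). Gabarapl2 was at 36.9, 35.7 and 38.8 CPM against 36.4, 33.8 and 35.7 CPM, overlapping groups that did not pass the test (-0.07 ± 0.05, edgeR adjusted p = 0.24), and its sign turned with upper-quartile scaling. Sqstm1 encodes the p62 cargo receptor, which is itself degraded by autophagy. It was at 317, 380 and 297 CPM in vehicle and 298, 304 and 324 CPM in Dox, also overlapping (-0.10 ± 0.09, edgeR adjusted p = 0.39).

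Scaled by transcript length, Gabarap made up 63.8% ± 1.2 (SD, n = 3) of the ATG8 family level in vehicle and 53.6% ± 0.73 in Dox. The share of Map1lc3b rose from 7.39% ± 0.25 to 13.3% ± 0.40, and that of Gabarapl2, whose own level did not pass the test, was 12.5% ± 0.66 against 15.8% ± 0.15. In none of these 3 shares did the groups overlap. The exact two-sided permutation test gave p = 0.1 for each, the smallest that 3 libraries against 3 allow. A share rises when the rest of the family falls, so it does not show a change in the gene itself. Over the families compared, 11 of 20 shares did not overlap between the groups. Shares of a family add up to the whole, so these are not separate outcomes. Those of Ulk1 and Ulk2 mirror each other, as do those of Atp6v0e and Atp6v0e2, and all are in this count. No share over all genes was computed for it.

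**Figure D2:**
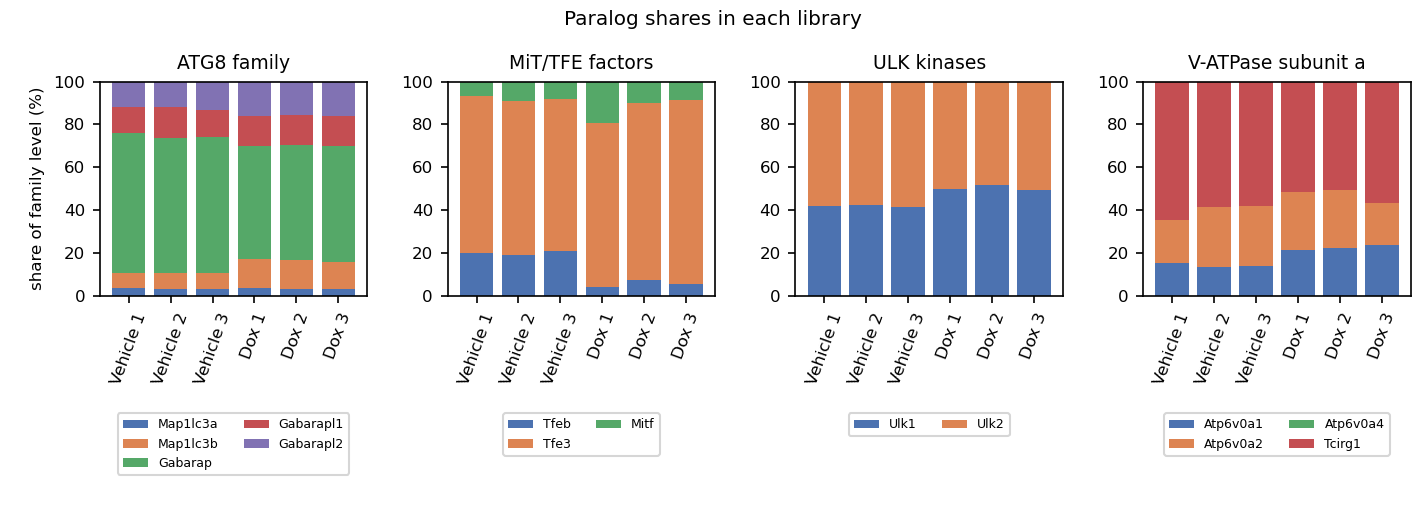
Share of each paralog in the length-scaled level of its family, in percent, as stacked bars for each of the 6 libraries. Gabarap is the broadest band of the ATG8 family in every library, from 62.8% to 65.2% in vehicle and 52.8% to 54.1% in Dox, and the Tfeb band is 18.9% to 20.7% in vehicle and 3.93% to 7.50% in Dox.

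Tfeb showed the largest change of the 52 genes. It lies at chromosome 17, 47737030 to 47792419, on the plus strand, and encodes the factor known as a main activator of lysosome genes. It was at 7.45, 6.70 and 7.37 CPM in vehicle, from 279 to 382 counts, and at 0.75, 1.26 and 0.90 CPM in Dox, from 32 to 62 counts. The groups lay far apart, a 7.33-fold fall (log2 fold change -2.87 ± 0.17, edgeR adjusted p = 2.4e-05). Leaving out each library in turn gave -3.11 to -2.72.

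Tfe3 (chromosome X, 7762560 to 7775202, plus strand), which encodes a related activator, also fell. It was at 39.1, 37.1 and 36.7 CPM in vehicle and 21.3, 20.0 and 20.7 CPM in Dox, a 1.82-fold fall (log2 fold change -0.87 ± 0.04, edgeR adjusted p = 1.3e-05), and all Dox libraries were below all vehicle libraries. Mitf, the third factor of the family in the table, was at 5.30, 6.68 and 6.10 CPM in vehicle and 7.70, 3.49 and 2.92 CPM in Dox. Dox 1 was the highest and the other Dox libraries the lowest of all 6, so Mitf did not pass (-0.36 ± 0.36, edgeR adjusted p = 0.44). Without Dox 1 it was -0.91 with an adjusted p of 0.0031. That was the only 1 of 15 alternatives in which Mitf passed. Its values over them ran from -0.91 to -0.11, with adjusted p up to 0.82. Tfeb made up 19.9% ± 0.94 (SD, n = 3) of the family's length-scaled level in vehicle and 5.63% ± 1.8 in Dox. The share of Tfe3 was 72.1% ± 0.94 and 81.8% ± 4.7, so Tfe3 held most of the family's transcripts in both groups while its own level fell.

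**Figure D3:**
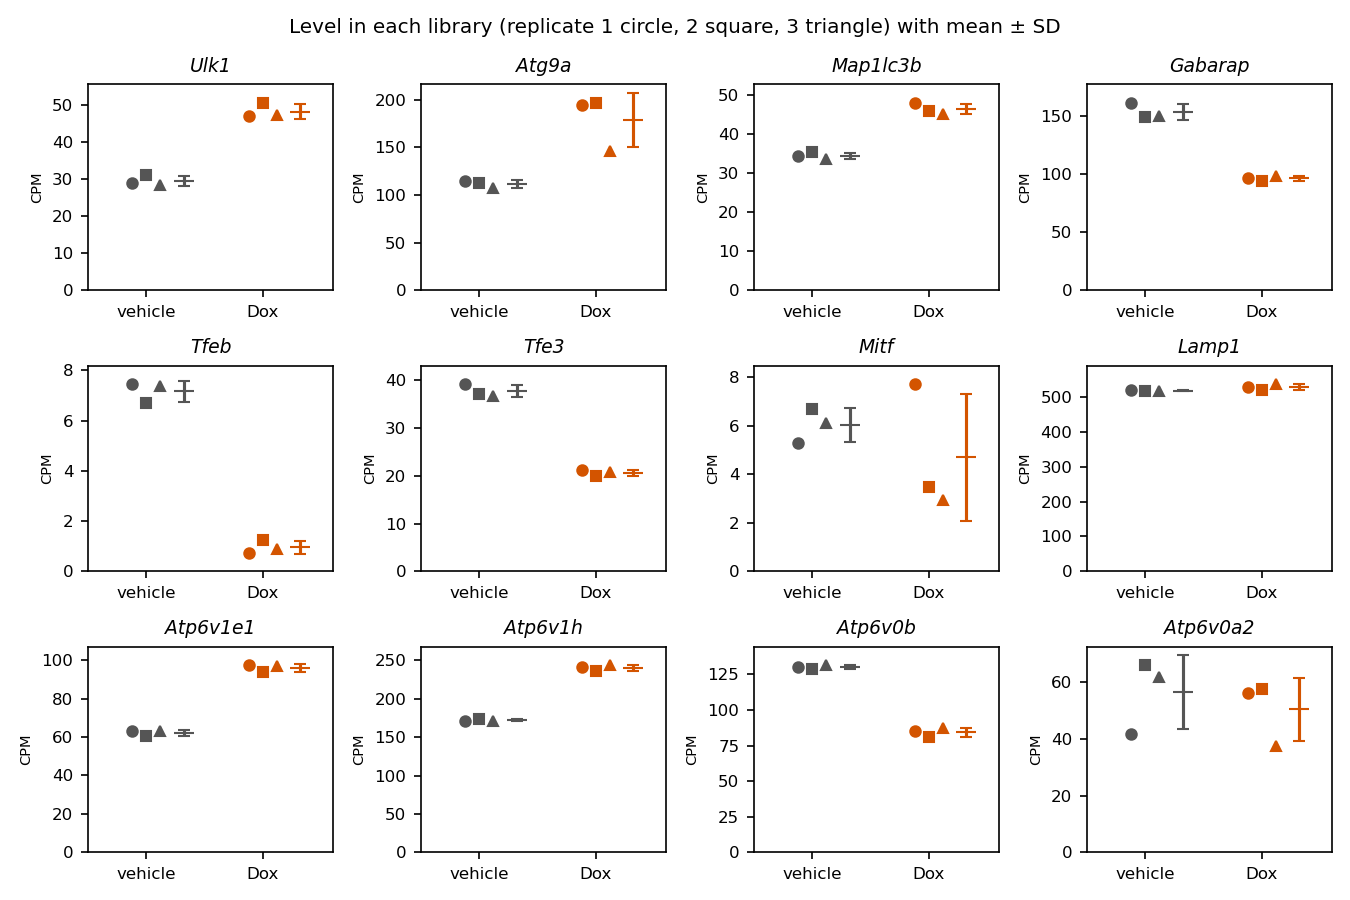
CPM of 12 genes in each library (circle, square and triangle for replicates 1, 2 and 3), with the group mean ± SD beside the points and vertical axes starting at 0. Dox and vehicle libraries are apart for Ulk1, Atg9a, Map1lc3b, Gabarap, Tfeb, Tfe3, Atp6v1e1, Atp6v1h and Atp6v0b, while Mitf and Atp6v0a2 overlap and the Lamp1 libraries all lie between 516 and 536 CPM.

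The lysosomal membrane glycoproteins, often used as markers of lysosome content, differed little. Lamp1 was at 518, 516 and 518 CPM in vehicle and 527, 518 and 536 CPM in Dox (log2 fold change 0.03 ± 0.02, edgeR adjusted p = 0.31). Its Dox libraries were all above its vehicle libraries, by a narrow margin. Lamp2 was at 164, 171 and 167 CPM against 164, 170 and 170 CPM, with overlapping groups (0.01 ± 0.03, edgeR adjusted p = 0.81). With upper-quartile scaling both passed as higher, at 0.12 and 0.10, with adjusted p of 0.0044 and 0.014.

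Of the 18 V-ATPase genes, 16 were tested, and 10 were higher (62.5%) and 3 lower (18.8%), with a median log2 fold change of 0.29. Over all genes 25.9% were higher and 28.8% lower. Atp6v0a4 had 13 counts in Vehicle 1 and 0 in the other 5 libraries, and Atp6v1b1 had 0 to 6 counts per library. These paralogs are known from specialised acid-secreting cells. Per kilobase of transcript, vehicle levels ran from 130 CPM for Atp6v0b, 87.0 for Atp6v1g1 and 84.0 for Atp6v1h down to 1.00 for Atp6v1g2 and 0.29 for Atp6v0e2. In Dox the order at the top changed, with Atp6v1h at 117, Atp6v0c at 92.3, Atp6v0b at 84.4 and Atp6v1g1 at 82.0 CPM per kilobase. The last 3 of these were close to each other, and the Dox libraries of Atp6v0c alone spanned 99.5 to 116 CPM before scaling by length.

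**Figure D4:**
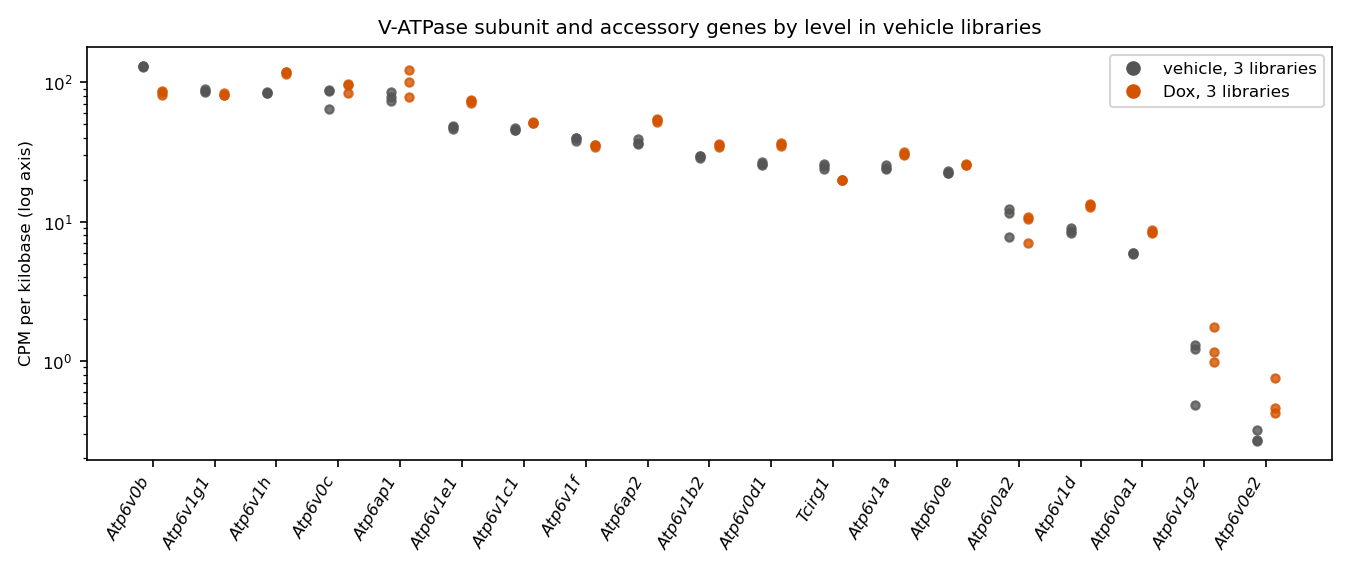
CPM per kilobase of transcript, on a log axis, for 16 V-ATPase subunit genes and the related genes Tcirg1, Atp6ap1 and Atp6ap2, ordered by mean vehicle level, with 1 point per library. Atp6v0b leads in vehicle, at 130 CPM per kilobase, and falls to 84.4 in Dox, while Atp6v1h and Atp6v1e1 lie higher in Dox.

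The V0 sector had 4 of 7 tested genes higher (57.1%) and 1 lower (14.3%), beside 25.9% and 28.8% of all genes. Atp6v0b, which encodes a subunit of the proton-carrying ring (chromosome 4, 117884326 to 117887333, minus strand), was at 130, 129 and 131 CPM in vehicle and 85.3, 80.7 and 87.1 CPM in Dox. It was the sole V-ATPase gene to fall by over 1.5-fold (1.54-fold, log2 fold change -0.62 ± 0.03, edgeR adjusted p = 1.7e-05). Atp6v0c encodes the main ring subunit, and was at 103, 103 and 75.6 CPM in vehicle and 99.5, 116 and 112 CPM in Dox, values printed because Vehicle 3 stands apart. The groups overlapped and it did not pass (0.22 ± 0.13, edgeR adjusted p = 0.20), and without Vehicle 3 the log2 fold change was 0.08. Its pseudogene Atp6v0c-ps1 was at 10.4, 9.97 and 10.3 CPM in vehicle and 10.4, 10.5 and 10.5 CPM in Dox (0.03 ± 0.04), with the same doubt about shared reads.

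Atp6v0a1, which encodes a form of the large membrane subunit a found in neurons, was at 23.8, 24.0 and 23.4 CPM in vehicle and 33.2, 34.9 and 33.7 CPM in Dox (log2 fold change 0.52 ± 0.04, edgeR adjusted p = 5.2e-05). Its groups were well separated. Atp6v0a2, another form of subunit a, was at 41.7, 65.8 and 61.7 CPM against 55.9, 57.4 and 37.5 CPM and did not pass (-0.17 ± 0.22, edgeR adjusted p = 0.57). Vehicle 1 and Dox 3 were its low libraries, and without Dox 3 its sign turned, at 0.01. Tcirg1, which encodes the a3 form, was at 76.2 ± 3.03 (SD, n = 3) CPM in vehicle and 60.9 ± 0.10 CPM in Dox and was lower (-0.32 ± 0.04, edgeR adjusted p = 0.00035). In shares of subunit a per length, Atp6v0a1 went from 14.3% ± 0.83 to 22.4% ± 1.2 and Tcirg1 from 60.4% ± 3.7 to 52.9% ± 3.1, without overlap (exact permutation p = 0.1 for each, the smallest possible).

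Of the other V0 genes, Atp6v0d1, which joins the membrane sector to the rotor, rose by 0.46 and Atp6v0e, a small subunit, by 0.18. Atp6v0e2, a paralog of Atp6v0e, was low, at 0.48 to 0.58 CPM in vehicle and 0.75 to 1.36 CPM in Dox. Its rise (0.93 ± 0.27, edgeR adjusted p = 0.025) was lost in 5 of 14 alternatives, up to an adjusted p of 0.078, and was 0.62 without Dox 2.

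In the V1 sector 6 of 9 tested genes were higher (66.7%) and 2 lower (22.2%), beside 25.9% and 28.8% of all genes. Atp6v1h, a regulatory subunit (chromosome 1, 5070018 to 5162529, plus strand), was at 171, 174 and 172 CPM in vehicle and 242, 236 and 244 CPM in Dox (log2 fold change 0.48 ± 0.02, edgeR adjusted p = 9.4e-06). It shares exonic sequence with Rgs20, which rose by 0.41. Atp6v1e1, a subunit of the stalks that hold the enzyme together, was at 63.1, 60.5 and 63.3 CPM against 97.3, 93.6 and 96.7 CPM (0.62 ± 0.03, edgeR adjusted p = 1.2e-05). For both genes every Dox library was above every vehicle library. Atp6v1d, part of the central rotor, rose by 0.61.

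The subunits of the ATP-hydrolysing head rose less: Atp6v1a, the catalytic subunit, by 0.33 and Atp6v1b2, its non-catalytic partner, by 0.26. Atp6v1c1, which links the stalks to the membrane sector, rose by 0.16. The 2 falls were small, at -0.16 for Atp6v1f (edgeR adjusted p = 0.019) and -0.09 for Atp6v1g1 (edgeR adjusted p = 0.044), and Atp6v1g1 turned to 0.01 with upper-quartile scaling. Neither fall passed without Vehicle 1, Vehicle 3, Dox 1 or Dox 2, each of which left Atp6v0b as the only V-ATPase gene called lower. Atp6v1g2, a low paralog known from brain, did not pass (0.37 ± 0.39, edgeR adjusted p = 0.46).

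The other genes of the pathway were counted in 6 lists by function, to be read beside the 25.9% of all genes that were higher and the 28.8% that were lower. Genes for initiation and nucleation outside the 54 were higher in 8 of 14 and lower in 3, with Pik3c3 higher and Tmem41b, a lipid scramblase of the endoplasmic reticulum, lower (-1.44 ± 0.13, edgeR adjusted p = 0.00016). Genes for fusion of autophagosomes with lysosomes were higher in 8 of 15 and lower in 4, with Tecpr1, a tethering factor, at -1.95 ± 0.07 and Vps33a, a tethering complex subunit, at 0.49 ± 0.03. Autophagy receptors other than Sqstm1 all passed the test, beside 54.7% of all genes and 70.9% of those at a mean of at least 5 CPM. Of the 13 receptors, 5 were higher and 8 lower, with a median of -0.44. Calcoco1 (0.92 ± 0.04) and Tollip (0.51 ± 0.03), both adaptor proteins of selective autophagy, had the smallest p among them and rose.

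V-ATPase accessory and assembly genes were higher in 5 of 13 and lower in 3, with a median of 0.52 and a range of -0.64 to 1.44. The low end was Dmxl2, which did not pass (edgeR adjusted p = 0.19). The high end was Vma21, where Dox 1 was at 91.6 CPM and Dox 2 and Dox 3 at 26.0 and 34.8 CPM. The smallest p were those of Wdr7 (0.95 ± 0.05), part of a complex that assembles the pump, and Oxr1 (-0.51 ± 0.03), which binds it. Genes of lysosomal mTORC1 and nutrient sensing were higher in 8 of 20 (40.0%) and lower in 6 (30.0%). Prkaa1, a catalytic subunit of AMP kinase, fell from 130.0 ± 3.04 (SD, n = 3) to 76.4 ± 0.89 CPM (-0.77 ± 0.03), and Rraga, a GTPase that recruits mTORC1 to the lysosome, rose (0.51 ± 0.02). Lysosomal hydrolases and membrane proteins were higher in 17 of 35 (48.6%) and lower in 11 (31.4%), with a median of 0.01. The shares lower of these last 2 lists and of the fusion genes (26.7%) were near the 28.8% of all genes. Those of the accessory and assembly genes (23.1%) and the initiation and nucleation genes (21.4%) were somewhat below it. That of the receptors (61.5%) was above it. Gla, the alpha-galactosidase, rose most clearly (1.39 ± 0.05, edgeR adjusted p = 4.5e-06), from 19.1 ± 0.94 to 50.1 ± 1.98 CPM, and Man2b1, a lysosomal mannosidase, rose by 0.71.

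**Figure D5:**
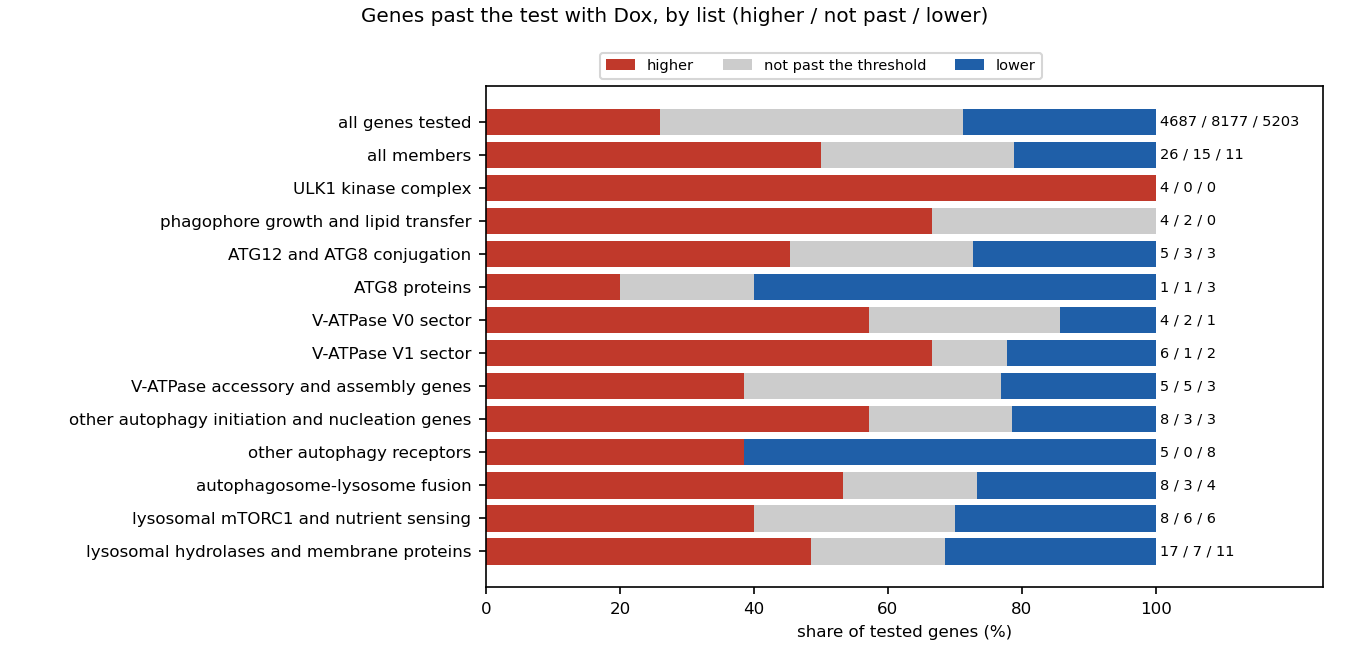
Share of tested genes, in percent, that were higher (red), did not pass (grey) or were lower (blue) with Dox, for all genes, the genes described here, their larger role groups and the 6 other pathway lists, with the counts at the right of each bar. The ULK1 complex is red throughout at 4 of 4, and the ATG8 and receptor bars have more blue than red, with 3 of 5 and 8 of 13 lower.

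In the authors' deposited table of the same comparison, made from the same libraries, 52 of the 54 genes had an adjusted p, and 23 of these were called higher and 8 lower. Every gene called in that table has an adjusted p under 0.01, and 40.3% of all genes with an adjusted p were called, in either direction. At the same limit of 0.01 the test used here also gave 23 higher and 8 lower. Over all 18067 genes tested it gave 3477 higher and 4299 lower at that limit. The log2 fold change in the authors' deposited table had the same sign as the one given here for all 52. Tfeb was at -2.64 ± 0.21 and Gabarap at -0.67 ± 0.05 in the authors' deposited table. The 6 genes called here at 0.05 and not in the authors' deposited table were Atg3, Map1lc3a, Wipi2, Atp6v0e2, Atp6v1f and Atp6v1g1, with adjusted p of 0.037 to 0.080 there.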

How the data were processed

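Per the labels' protocols, total RNA was extracted with TRIzol and total RNA libraries were prepared by a sequencing core. HISAT2 2.1.0, StringTie 1.3.3, FastQC 0.11.3 and DESeq2, with the build GRCm38, appear in the submitters' processing notes without a stated role. Not given in the sources used here are the annotation, the strandedness and the treatment of multi-mapped reads. As deposited by the authors, the data were raw whole-number counts per gene symbol and a table of Dox against vehicle. Its columns, per the file headers, are a normalized mean (signal), log2 fold change and error, the statistic (a score), and p-values raw and adjusted.

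Low-count genes were dropped by filterByExpr, libraries were scaled by TMM (0.970 to 1.03) and levels are CPM of the effective library size. Dox was compared with vehicle over all 6 libraries with edgeR 4.0.16 (quasi-likelihood test, limma 3.58.1, R 4.3.3), adjusted by Benjamini-Hochberg over the 18067 genes tested and called at 0.05. Each standard error is the fold change (log2) divided by the root of the quasi-likelihood F. Biological variation, as a common coefficient, was 12.0%. The precision of a level rests on its count, and the shallowest library held 38566798. The fit was tested on simulated data. No library repeated another: between replicates, chi-square per degree of freedom was 11.1 to 13.8.

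The genes described, the role and pathway lists and the rules were chosen with earlier results of these data known. By rule, values per library were given for Klf13, for genes past the test with an absolute log2 fold change of at least 1, for the 2 smallest p of each role, and for every ATG8, MiT/TFE and LAMP gene. Of each other pathway list the 2 smallest p were named. Atg9a, Atg4d, Atp6v0c, Atp6v0a2, Tcirg1 and Rb1cc1 were added after their values were seen. Dmxl2 and Vma21 were also named outside the rule, as the ends of the range of their list.

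Coordinates, transcript lengths (longest coding transcript) and exonic overlaps of at least 50 bases come from GENCODE M21 on GRCm38, which may differ from the authors' annotation. All 54 symbols matched, and 16 overlap another gene. Promoter windows come from RefSeq (GRCm38.p6), with 32851 windows in all and 53 of the genes described. Atp6v0d2, Atp6v1c2, Atp6v1e2 and Atp6v1g3 are not analysed here. Alternatives for scaling were upper-quartile and DESeq2 size factors. Those for the test were limma-voom, DESeq2 1.42.0, glmTreat against a 1.2-fold change, a replicate block and an adjusted p of 0.01. Others were a filter at 5 CPM or none, genes without exonic overlap, and 1 library left out at a time.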

Additional observations from a re-analysis of the deposited data

How the results depend on the processing

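Of the 37 genes called, 23 passed in every alternative run and 36 kept their direction, Atp6v1g1 being the exception. Of the 15 not called, 6 passed in 1 or more alternatives. Leaving out each library gave 24 to 26 genes higher, 8 to 11 lower, and 1 to 3 V-ATPase genes lower. Over all genes the same runs gave 4146 to 4339 higher and 4841 to 4993 lower, with 48.6% to 50.4% of those tested called. The count of V-ATPase genes lower was 1 with upper-quartile scaling, with an adjusted p under 0.01 and with glmTreat against a 1.2-fold change, which asks for larger changes. With glmTreat 19 of the genes were higher and 4 lower, 6 V-ATPase genes were higher, and 3 autophagy and lysosome genes were lower. Of all 18067 genes tested, glmTreat called 2417 higher and 3615 lower. The sign turned for 8 genes. With upper-quartile scaling values were 0.00643 for Atg12, 0.0482 for Atg9b, 0.00701 for Atp6v1g1 and 0.0187 for Gabarapl2. Leaving out each library gave -0.695 to 0.00509 for Atg4d, -0.0839 to 0.0158 for Atg9b, -0.345 to 0.00783 for Atp6v0a2, -0.00756 to 0.0292 for Lamp2 and -0.176 to 0.00634 for Sqstm1. The cause was not tested. The groups share replicate numbers, but same-numbered libraries did not deviate together (correlations of 0.016, 0.053 and -0.09 over 13116 genes), and no pairing was assumed. With a replicate block 26 genes were higher and 10 lower, Atp6v1g1 missing the threshold, and 9699 of all genes were called. Among the genes described here with no exonic overlap 20 were higher and 9 lower. No share over all genes without such overlap was computed to set beside them. Of the paralog shares, 10 did not overlap without length scaling, and 11 to 14 when a library was left out.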
